A study of Mus musculus with 12 samples.

Results

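The TGF-beta and BMP pathway genes described here are the ligands, receptors, secreted inhibitors, latency proteins and SMAD proteins of the transforming growth factor beta superfamily. They were chosen by name from the deposited table: rows whose gene name, or any part of a joined name, is a Tgfb, Tgfbr, Bmp, Bmpr, Gdf, Inhb, Acvr, Smad, Grem or Ltbp gene, or is Nog, Fst, Fstl3, Eng or Chrdl1. This gave 57 genes in as many of the 37750 rows. Of these, 3 share a row with an overlapping gene and are called joined rows (Eng with Ak1, Gdf1 with Cers1, and Smad5 with an antisense RNA). LPS stands for liposarcoma, taken from Ad/NICD animals 9 to 12 months old (8 libraries). WAT stands for white adipose tissue of Ad/NICD animals 3 weeks old (4 libraries). All animals of both groups carry the Ad/NICD transgene, the active intracellular domain of Notch1 in adipocytes, on a 129 x C57BL/6 background, so the WAT is not wild-type fat. The sources used here do not name the promoter that drives the transgene. Age and tissue differ together between the groups and cannot be told apart. The labels call the libraries biological replicates, and p-values measure the spread between them. The sources used here do not say whether an animal gave more than 1 library.

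Ligands of this family bind a type II receptor kinase, which activates a type I receptor kinase. TGF-beta and activin receptors then mostly phosphorylate SMAD2 and SMAD3, and BMP receptors phosphorylate SMAD1, SMAD5 and SMAD9. These join SMAD4 in the nucleus, while SMAD6 and SMAD7 inhibit the pathway and secreted proteins hold ligands latent or trap them. In fat, BMP signals commit progenitors to the adipocyte lineage, TGF-beta restrains adipocyte differentiation, and the activin-type receptor ALK7 (encoded by Acvr1c) acts in mature mouse adipocytes to favour fat storage.

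RNA was measured by sequencing of ribosomal RNA-depleted total RNA, as FPKM (fragments per kilobase of transcript, scaled by the fragments mapped in the library). FPKM summed to 771665 to 996090 per library, and 12965 to 14248 rows had at least 1 FPKM. The table gives no fragment totals, so the depth is not known. LPS 5 stood apart, with 361556 of its 996090 FPKM in the predicted gene Gm10800. As FPKM are scaled by the fragments mapped, fragments of that row may lower the values of other genes in LPS 5. How far they did was not tested, and it bears on each low value of LPS 5 below. All 6 adipocyte markers (Adipoq, Plin1, Cfd, Lep, Cidec and Pck1) were called lower in LPS, with a summed level of 1.07 to 35.6 FPKM in LPS and 4115 to 5771 FPKM in WAT. The LPS libraries highest in that sum were LPS 5 at 35.6 FPKM and LPS 1 at 33.3 FPKM. The summed level of these 6 markers was thus far lower in every sample labelled liposarcoma. Plin1 was still at 32.2 FPKM in LPS 1 and Cfd at 27.2 FPKM in LPS 5. Pparg, the master factor of adipocyte differentiation and not among the 6, was 2.93 to 94.2 FPKM in LPS and 70.4 to 134 FPKM in WAT. All 8 pericyte markers were called higher in LPS, with sums of 3572 to 7842 FPKM in LPS and 221 to 238 FPKM in WAT. Of 7 fibroblast and progenitor markers, 6 were called lower, with sums of 23.5 to 117 FPKM in LPS and 359 to 532 FPKM in WAT. Of 8 endothelial markers, 2 were called higher and 5 lower, with sums of 279 to 462 FPKM in LPS and 280.1 to 391 FPKM in WAT. Of 5 macrophage markers, C1qa and C1qb were called higher and none lower, and the sums of 160.5 to 596 FPKM in LPS lay above those of 136 to 154 FPKM in WAT. All 6 lymphocyte markers were called lower, with sums of 0.417 to 13.0 FPKM in LPS and 62.5 to 127 FPKM in WAT. None of 5 epithelial markers was tested, with sums of 0.0633 to 0.722 FPKM in LPS and 0.936 to 11.4 FPKM in WAT. Skeletal muscle markers summed to 0.221 to 395 FPKM in LPS, highest in LPS 8 (395 FPKM), LPS 1 (80.0 FPKM) and LPS 4 (41.5 FPKM). In WAT they summed to 1576 FPKM in WAT 1 and 1327 FPKM in WAT 4. They summed to 4.77 FPKM in WAT 2 and 190.1 FPKM in WAT 3. For the pathway genes chosen by name, results are therefore also given without WAT 1 and WAT 4 where a gene still tested lost its call. For the genes of the other pathway lists only counts are given without these libraries. In bulk tissue, fewer cells of a type and less RNA per cell cannot be told apart. The part of these cell type markers and of muscle RNA in the differences below was not tested as such. Fits without LPS 5, without each other library, and without WAT 1 and WAT 4 together show only which calls change.

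The comparison asks which parts of the pathway differ between established tumours and the fat they are held to arise from. Gdf11, the most abundant BMP or GDF ligand gene in every LPS library, and all 3 TGF-beta genes were higher in LPS, and Acvr1c and the BMP antagonists Chrdl1 and Grem1 were close to 0 FPKM in tumours. Differences are LPS minus WAT of log2(FPKM + 1), fitted with limma over the 14821 rows that reached 1 FPKM in 4 or more libraries, and a call is an adjusted p below 0.05. Adding 1 before the logarithm shrinks the differences of genes with low FPKM. Values of single genes are given as the lowest, the median and the highest of the 8 LPS libraries, and for WAT 1 to WAT 4 in order. Of the 57 genes, 42 were tested. In LPS 12 were called higher (28.6% of those tested, against 18.9% of all rows tested), 15 were called lower (35.7%, against 27%), and 15 were not called. After quantile normalization, which gives all libraries the same distribution of values, 13 were higher (31%, against 28.2% of all rows) and 14 lower (33.3%, against 23.3%). At 1 or more on the log2 scale, 6 were higher and 12 lower. The share of all rows called at that size was not counted, so these counts are not read as particular to the pathway. Every LPS library lay above every WAT library for 7 tested genes (16.7%, against 11.8% of rows), and below every WAT library for 13 (31%, against 20.9%). The median log2 difference was 0.02 over the tested genes and -0.05 over all rows tested. These shares, and the counts by role and list below, carry no test of their own, and the filter sets part of them. Of the tested genes, 10 reached the filter only with the help of WAT libraries, of which 9 were called lower. These 9 were Acvr1c, Bmp3, Bmp6, Bmp7, Chrdl1, Gdf10, Grem1, Ltbp1 and Ltbp2, and the joined row of Gdf1 was not called. Another 3 (Bmp5, Bmpr1b and Gdf3) reached it through LPS with no WAT library at 1 FPKM, all called higher. The 15 genes left untested included Bmp2, Bmp4, Bmp8a, Bmp8b, Bmp10, Bmp15, Gdf2, Gdf6, Gdf7, Gdf9, Gdf15, Inhba, Nog and Smad9, and no single value of the 15 was above 2.80 FPKM (Bmp4 in LPS 5). Among them, Nog, which encodes the BMP antagonist noggin, was at most 0.0892 FPKM in LPS and at least 0.310 FPKM in WAT. Smad9 was at most 0.0789 FPKM in LPS and at least 0.128 FPKM in WAT.

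**Figure D1:**
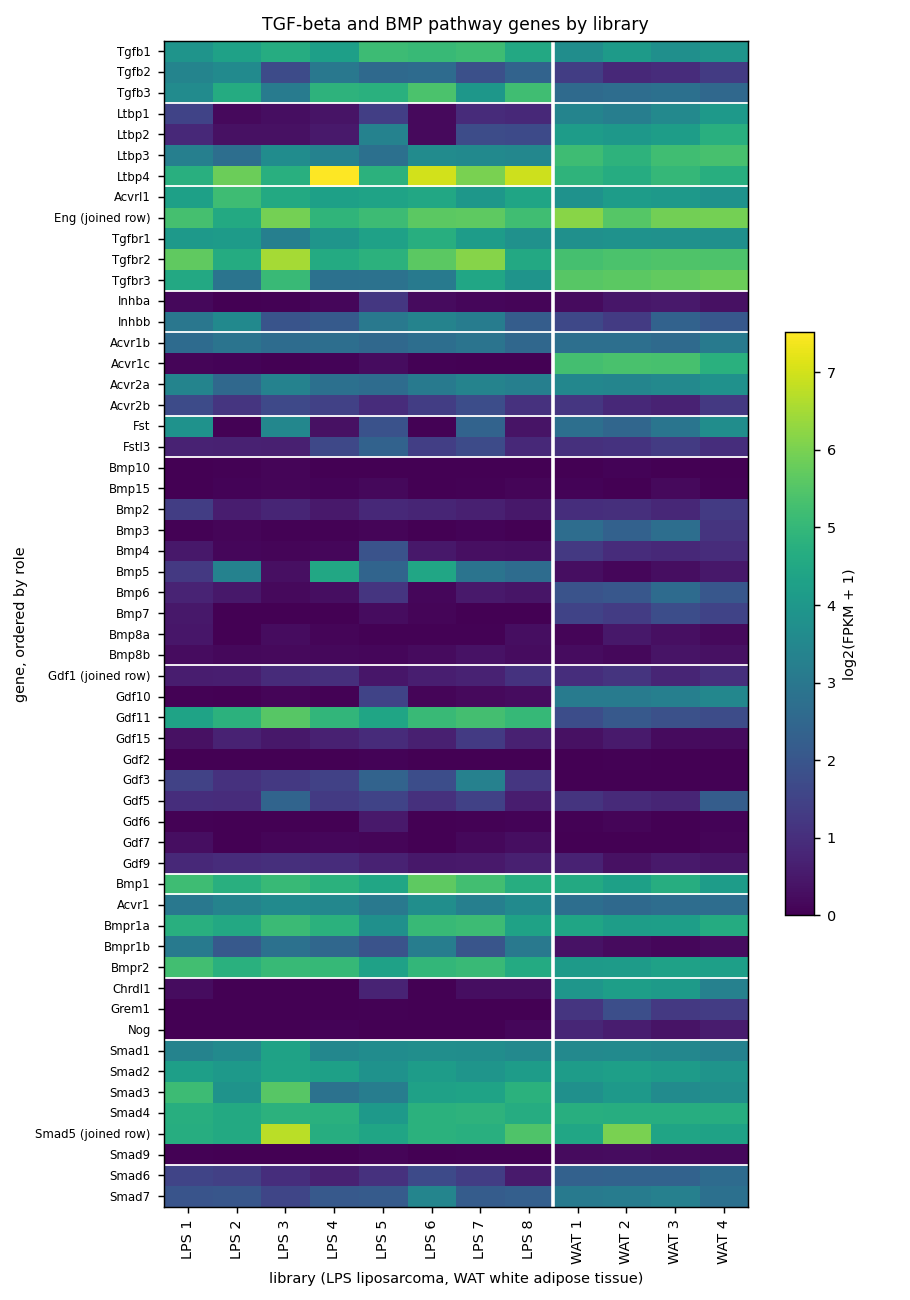
Level of the pathway genes in each library, as log2(FPKM + 1), with the 8 LPS libraries left of the white line and the 4 WAT libraries right of it. Rows are grouped by role, and white horizontal lines part the roles. Gdf11 is bright across LPS, while Acvr1c, Chrdl1 and Gdf10 are dark in LPS and bright in WAT.

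**Figure D2:**
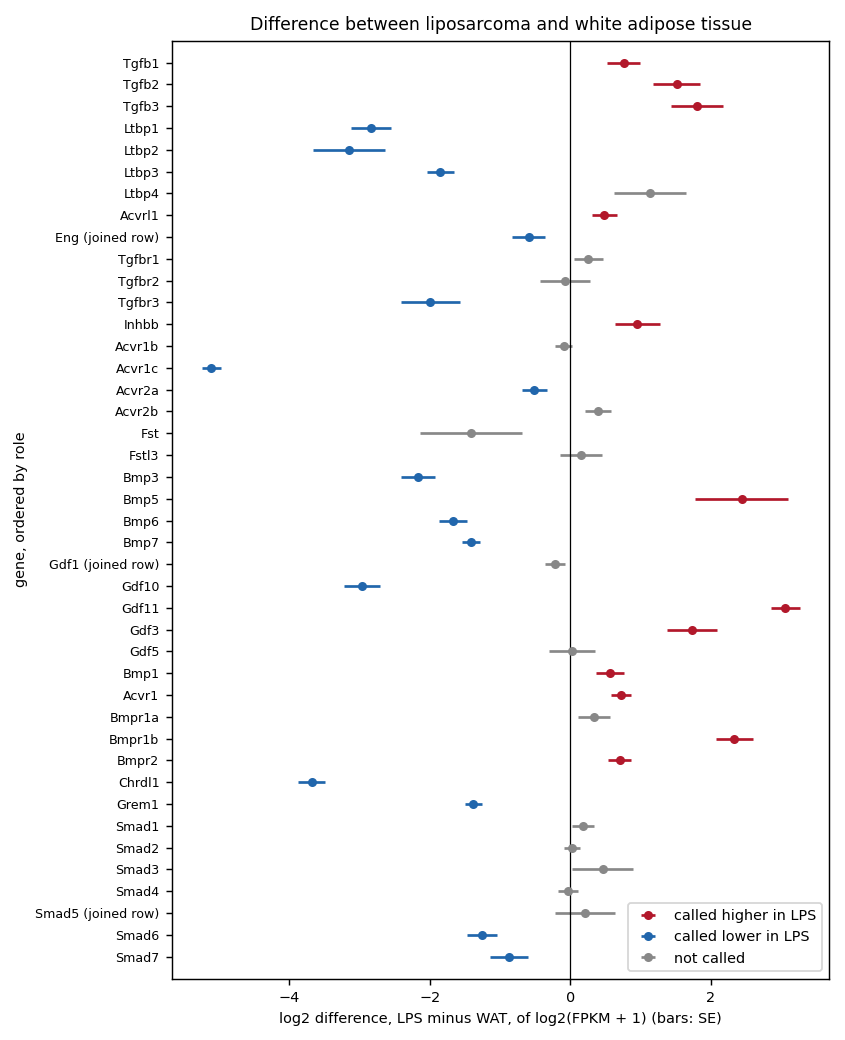
Log2 difference between LPS and WAT for the 42 tested genes, with bars of 1 standard error. Red points were called higher in LPS, blue points lower and grey points were not called, and Acvr1c at -5.11 and Gdf11 at 3.06 mark the ends.

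All 3 TGF-beta ligand genes were called higher in LPS, against 18.9% of all rows tested. Their summed level was 34.1 to 78.4 FPKM in LPS and 18.5 to 22.5 FPKM in WAT, with no overlap. Tgfb3 (chr12:85824659-86079041), a TGF-beta isoform known for its role in palate fusion, had 7.82, 25.1 and 40.9 FPKM (lowest, median and highest) in LPS, against 5.07, 5.47, 5.80 and 4.76 FPKM in WAT. All LPS libraries lay above all WAT libraries, although LPS 3 and LPS 1 came near them. The log2 difference was 1.81 ± 0.37 (SE, adjusted p = 0.00133). Tgfb2 (chr1:186623186-186705992), an isoform needed in heart and skeletal development, had 2.29, 5.04 and 11.2 FPKM (lowest, median and highest) in LPS, against 1.59, 0.827, 0.933 and 1.49 FPKM in WAT. The groups did not overlap, and LPS 2 and LPS 1 were highest. Its log2 difference was 1.51 ± 0.33 (SE, adjusted p = 0.00224). Tgfb1 (chr7:25687002-25705077), the isoform most linked to immune control and fibrosis, was the most abundant of the 3 in 4 of 8 LPS and in all WAT libraries, at 13.7 to 35.6 FPKM in LPS and 11.9 to 16.2 FPKM in WAT. LPS 1 fell inside the WAT range, and the log2 difference was 0.76 ± 0.23 (SE, adjusted p = 0.0179). That call was lost without WAT 1 or WAT 3 (adjusted p = 0.0549 to 0.059) and without WAT 1 and WAT 4 together (adjusted p = 0.149). Over LPS 1 to LPS 4 and WAT 1 to WAT 4 alone the log2 difference was 0.40, not called (adjusted p = 0.0851). LPS 1, the lowest tumour for Tgfb1, had the highest macrophage marker sum. The part of macrophage and lymphocyte RNA in the Tgfb1 level was not tested. The deposited Tgfb3 row spans 254383 bases, against 22297 bases for the gene in GENCODE, and antisense genes overlap exons of Tgfb2 and Tgfb3. The library kit keeps strand, but the sources used here do not give the strand setting of the counting, so reads of such partners may be included. Antisense genes also overlap exons of Acvrl1, Fst, Fstl3, Gdf5 and Bmpr1a.

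Latent TGF-beta binding proteins tether the inactive ligand to the extracellular matrix. Ltbp1, Ltbp2 and Ltbp3 were called lower in LPS (75% of the 4, against 27% of all rows tested), and Ltbp4 was not called. Ltbp1 and Ltbp2 reached the filter only with the help of WAT libraries. Ltbp2 (chr12:84783212-84878132), a microfibril protein that does not bind latent TGF-beta, had 0.153, 0.628 and 9.14 FPKM (lowest, median and highest) in LPS, against 16.9, 15.1, 17.3 and 25.9 FPKM in WAT. No libraries overlapped, and LPS 5 was the highest tumour at 9.14 FPKM against 2.36 FPKM in the next. On the log2 scale the difference was -3.15 ± 0.51 (SE, adjusted p = 0.000222). Ltbp1 (chr17:75005568-75392512), which binds latent TGF-beta, had 0.153, 0.562 and 1.88 FPKM (lowest, median and highest) in LPS, against 9.59, 8.26, 10.6 and 15.8 FPKM in WAT. All tumours were below all WAT libraries, with a log2 difference of -2.83 ± 0.28 (SE, adjusted p = 3.27e-06). Ltbp3 (chr19:5740904-5771401), known for its part in bone and tooth growth, had 5.55, 9.58 and 11.6 FPKM (lowest, median and highest) in LPS, against 35.4, 28.1, 35.8 and 39.4 FPKM in WAT. The tumours spanned 2.09-fold among themselves and did not reach WAT, and the log2 difference was -1.85 ± 0.19 (SE, adjusted p = 4.81e-06). Ltbp4 (chr7:27305136-27337692), which helps assemble elastic fibres, had 26.0, 59.0 and 182 FPKM (lowest, median and highest) in LPS, against 28.7, 24.3, 30.9 and 25.5 FPKM in WAT. LPS 4, LPS 6 and LPS 8 exceeded 100 FPKM (a line drawn after the values were seen), while LPS 1, LPS 3 and LPS 5 lay within the WAT range. The log2 difference was 1.13 ± 0.51 (SE, adjusted p = 0.0883), and it was called without LPS 1 or LPS 3 (adjusted p = 0.0472 to 0.0473) and with limma's library weights (adjusted p = 0.01). With Ltbp4 as its main part in LPS, the summed level of the 4 genes ran from 37.2 to 192 FPKM in LPS and from 75.6 to 107 FPKM in WAT. Exons of Ltbp2 and Ltbp3 overlap genes on the other strand.

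Among the receptors and co-receptors of TGF-beta, 1 gene was called higher (20%, against 18.9% of all rows tested). Another 2 were called lower (40%, against 27%) and 2 were not called. Tgfbr3 (chr5:107106570-107289629) encodes betaglycan, a co-receptor that presents TGF-beta2 and also serves inhibin. It had 6.01, 10.6 and 33.2 FPKM (lowest, median and highest) in LPS, against 46.8, 48.5, 51.3 and 55.5 FPKM in WAT. The groups did not overlap, with LPS 3, LPS 1 and LPS 7 the highest tumours. Its log2 difference was -1.99 ± 0.42 (SE, adjusted p = 0.00177), and a predicted gene on the same strand overlaps its exons. Tgfbr2 (chr9:116087698-116175363), the type II receptor, had 22.3, 37.9 and 89.9 FPKM (lowest, median and highest) in LPS, against 38.7, 41.3, 42.5 and 41.7 FPKM in WAT. The tumours lay on both sides of a narrow WAT range, with LPS 1, LPS 3, LPS 6 and LPS 7 above it and the other 4 below it. Its log2 difference was -0.07 ± 0.36 (SE, adjusted p = 0.884). Tgfbr1, the type I receptor, was 8.58 to 25.5 FPKM in LPS and 12.7 to 13.1 FPKM in WAT, with a log2 difference of 0.25 ± 0.21 (SE, adjusted p = 0.335). Acvrl1, which encodes the endothelial type I receptor ALK1, was 14.8 to 35.2 FPKM in LPS and 13.2 to 16.7 FPKM in WAT, with a log2 difference of 0.48 ± 0.18 (SE, adjusted p = 0.0412). The joined row of Eng (endoglin, an endothelial co-receptor) was 22.5 to 60.8 FPKM in LPS and 45.3 to 71.4 FPKM in WAT, with a log2 difference of -0.59 ± 0.23 (SE, adjusted p = 0.0497). Both of these calls were marginal. Of the 8 endothelial markers, Pecam1, Cdh5, Kdr, Tek and Egfl7 were called lower and Esam and Emcn higher, and their part in the levels of Acvrl1 and Eng was not tested. The Acvrl1 call was lost without LPS 3, LPS 6, LPS 8, WAT 1, WAT 2, WAT 3 or WAT 4 (adjusted p = 0.0511 to 0.116) and without WAT 1 and WAT 4 together (adjusted p = 0.329). The Eng call was lost without LPS 1, LPS 2, LPS 4, LPS 5, LPS 8, WAT 1, WAT 3 or WAT 4 (adjusted p = 0.0626 to 0.151), without WAT 1 and WAT 4 together (adjusted p = 0.36), and under both other scalings.

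Activins are dimers of inhibin beta subunits, and their receptors also serve several GDF ligands. The summed level of the 4 activin receptor genes was 11.3 to 18.1 FPKM in LPS and 48.1 to 56.2 FPKM in WAT, and Acvr1c accounted for most of the WAT level. Acvr1c (chr2:58267453-58357895) had 0.00538, 0.0421 and 0.184 FPKM (lowest, median and highest) in LPS, against 37.7, 40.0, 39.4 and 26.3 FPKM in WAT. Every tumour was close to 0, and the lowest WAT library, WAT 4, was still at 26.3 FPKM. Its log2 difference of -5.11 ± 0.13 (SE, adjusted p = 1.32e-11) was the largest of the 42 in either direction. The row overlaps an antisense gene. Acvr1c lies 30.7 kb from Acvr1, which encodes the BMP type I receptor ALK2 and was called higher. The 6 adipocyte markers fell together with Acvr1c, and LPS 5 was the highest tumour for Acvr1c and for the adipocyte marker sum. Acvr2a, a type II receptor, was 4.76 to 9.53 FPKM in LPS and 9.68 to 13.0 FPKM in WAT, with a log2 difference of -0.51 ± 0.18 (SE, adjusted p = 0.0371). The groups did not overlap, although the margin was small, and the call was lost without LPS 2, LPS 4, LPS 5, WAT 1, WAT 2, WAT 3 or WAT 4 (adjusted p = 0.0506 to 0.129) and without WAT 1 and WAT 4 together (adjusted p = 0.248). The Acvr2a row spans 508176 bases, against 89161 bases in GENCODE, and overlaps Orc4 on the other strand. Acvr1b (chr15:101174104-101213678), which encodes the type I activin receptor ALK4, had 4.68, 5.43 and 6.40 FPKM (lowest, median and highest) in LPS, against 5.66, 5.70, 5.05 and 7.41 FPKM in WAT. The groups overlapped throughout, with a log2 difference of -0.09 ± 0.12 (SE, adjusted p = 0.569). Acvr2b, another type II receptor, had a log2 difference of 0.39 ± 0.19 (SE, adjusted p = 0.103), not called. It was called without LPS 5 (adjusted p = 0.0477), with limma's library weights (adjusted p = 0.028) and after quantile normalization, where the log2 difference was 0.71 (adjusted p = 0.00336). Inhbb, the beta B subunit of activin B, was 2.83 to 10.8 FPKM in LPS and 1.47 to 4.10 FPKM in WAT, with a log2 difference of 0.95 ± 0.32 (SE, adjusted p = 0.0277). LPS 3, LPS 4 and LPS 8 lay inside the WAT range, and the call was lost without WAT 1 or WAT 2 (adjusted p = 0.0793 to 0.102) and without WAT 1 and WAT 4 together (adjusted p = 0.142). Follistatin (Fst, chr13:114452262-114458730), which traps activins, had 0.0240, 1.5 and 13.2 FPKM (lowest, median and highest) in LPS, against 5.72, 4.61, 6.64 and 11.8 FPKM in WAT. LPS 1 and LPS 3 lay within or above the WAT range, and LPS 2, LPS 4, LPS 6 and LPS 8 were at 0.311 FPKM or below. On the log2 scale the difference was -1.41 ± 0.73 (SE, adjusted p = 0.133), and it was called without LPS 1 (adjusted p = 0.0428) and with library weights (adjusted p = 0.0299). Fstl3, a relative of follistatin, had a log2 difference of 0.15 ± 0.30 (SE, adjusted p = 0.71).

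**Figure D3:**
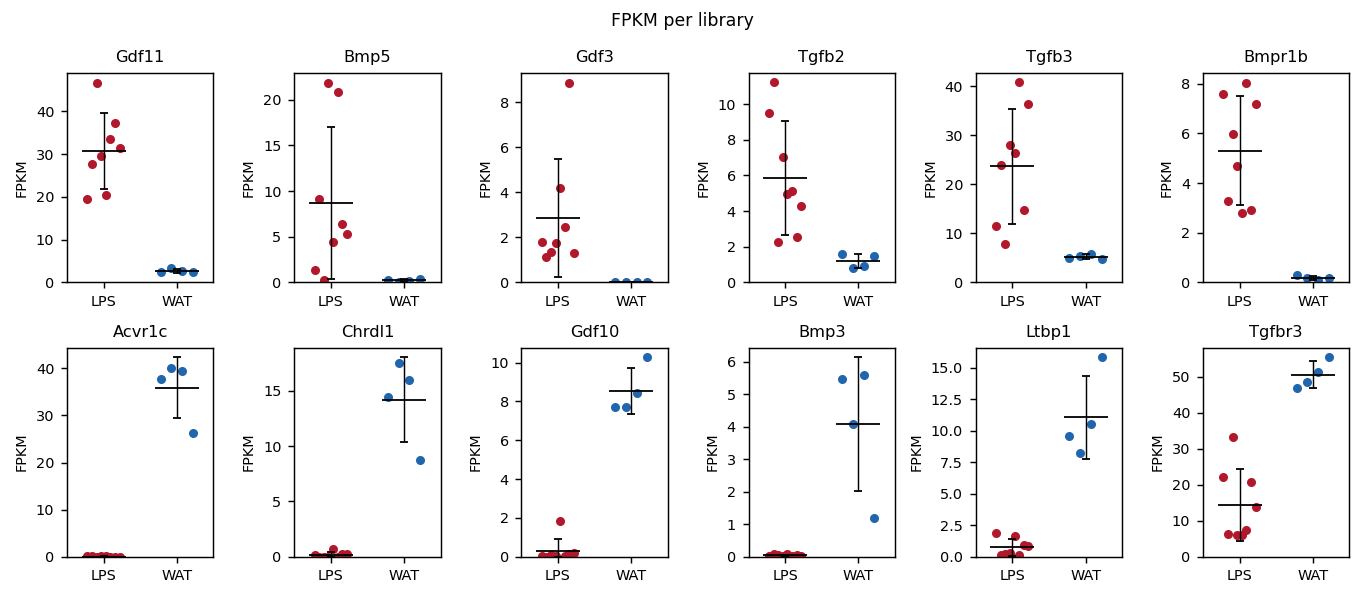
FPKM of 12 pathway genes in each library, LPS left and WAT right in each panel, with the mean as a horizontal line and error bars of 1 SD (8 LPS and 4 WAT libraries). The vertical axes are linear and differ between panels. The upper row holds genes called higher in LPS and the lower row genes called lower, and Bmp5 is the gene of the 12 in which 1 tumour, LPS 3 at 0.238 FPKM, falls within the WAT range.

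Which BMP and GDF ligand genes were transcribed differed between tumour and fat. In LPS, Gdf11 gave 50.8 to 83.9% of the summed FPKM of 19 ligand genes (all BMP and GDF ligands apart from the joined row of Gdf1), against 9.09 to 13.8% in WAT. Gdf10 gave 0 to 4.58% of that sum in LPS, against 30.0 to 39.1% in WAT. Shares of 1 sum are tied to each other, so they are given as a description beside the levels. The 10 GDF ligand genes together reached 24.2 to 54.8 FPKM in LPS and 13.1 to 18.0 FPKM in WAT. The 10 BMP ligand genes reached 1.71 to 22.8 FPKM in LPS and 9.32 to 15.7 FPKM in WAT. The promoters of the BMP or GDF ligand genes with the largest difference each way on the log2(FPKM + 1) scale are shown. Those of Bmp5 and Ltbp3, called genes in which the core RBPJ motif was found, are shown as well. That of Bmpr2, where it was also found, is not. RBPJ is the DNA-binding partner of the Notch intracellular domain. Each is the 250 bases before the RefSeq start (build GRCm38.p6), 5′ to 3′ on the gene's strand, with a match to the RBPJ core TGGGAA on either strand in capitals. Gdf11 is at chr10:128891719-128891968 on the minus strand, and Bmp5 at chr9:75775115-75775364, Gdf10 at chr14:33923337-33923586 and Ltbp3 at chr19:5740650-5740899 are on the plus strand.
Gdf11: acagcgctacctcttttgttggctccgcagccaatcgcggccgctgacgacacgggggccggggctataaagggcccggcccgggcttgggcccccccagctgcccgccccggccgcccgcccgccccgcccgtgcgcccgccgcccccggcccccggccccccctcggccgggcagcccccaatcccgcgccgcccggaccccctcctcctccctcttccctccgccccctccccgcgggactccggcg
Gdf10: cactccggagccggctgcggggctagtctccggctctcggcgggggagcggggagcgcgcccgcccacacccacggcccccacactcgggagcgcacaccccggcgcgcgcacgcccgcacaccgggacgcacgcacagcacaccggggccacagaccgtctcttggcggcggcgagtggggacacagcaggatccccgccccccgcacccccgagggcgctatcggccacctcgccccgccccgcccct
Bmp5: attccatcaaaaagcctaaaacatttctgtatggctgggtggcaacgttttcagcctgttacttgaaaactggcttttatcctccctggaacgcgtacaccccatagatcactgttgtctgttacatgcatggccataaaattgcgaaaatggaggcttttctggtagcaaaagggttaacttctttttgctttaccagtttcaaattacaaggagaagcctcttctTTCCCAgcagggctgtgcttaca
Ltbp3: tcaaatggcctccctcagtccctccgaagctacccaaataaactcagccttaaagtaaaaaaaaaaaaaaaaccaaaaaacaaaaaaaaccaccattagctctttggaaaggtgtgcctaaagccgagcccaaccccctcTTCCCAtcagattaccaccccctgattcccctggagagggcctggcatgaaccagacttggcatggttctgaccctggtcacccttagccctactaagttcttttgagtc

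The Gdf11 and Gdf10 windows are rich in G and C (81.2% and 78.8%) and hold neither the RBPJ core nor GGCGCC, a GC-rich element bound by SMAD1 and SMAD5. The Bmp5 window (42.8% G and C) holds the RBPJ core on the minus strand at bases 23 to 18 before the start, and the Ltbp3 window (47.2%) holds it at bases 110 to 105. Of the 57 genes, 39 had a window in the table, and the first window listed per gene was used. Some of these lie away from the gene's start in GENCODE. Among called genes the distance was 187161 bases for Bmpr1b, 879 bases for Bmpr2 and 609 bases for Bmp6. The RBPJ core was in 2 of 8 windows of genes called higher (Bmp5 and Bmpr2, 25%), in 1 of 10 of genes called lower (Ltbp3, 10%) and in 21.5% of the first windows of all 27025 genes. The GGCGCC element was in 12.5%, 10% and 9.54%, in the same order. Median G and C content was 66% and 67.8% in the windows of genes called higher and lower, and 52% over all genes. A match of so few letters is a description of the window and not a binding site.

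Gdf11 (chr10:128882295-128891718), a relative of myostatin that patterns the axial skeleton and signals through activin type II receptors, had 19.5, 30.5 and 46.7 FPKM (lowest, median and highest) in LPS, against 2.44, 3.32, 2.65 and 2.39 FPKM in WAT. The lowest tumour was several times the highest WAT library, and the tumours spanned 2.39-fold. It averaged 30.8 ± 8.84 FPKM in LPS and 2.70 ± 0.429 FPKM in WAT (SD, n = 8 and 4), an 11.4-fold difference of means. The log2 difference was 3.06 ± 0.20 (SE, adjusted p = 7.93e-08), and the two-sided exact permutation test over the libraries (495 assignments) gave p = 0.00202, the smallest it can give. The order of the raised ligands depends on the number added before the logarithm. With 0.1 in place of 1, the log2 difference was 3.42 for Gdf11, 3.99 for Bmp5 and 4.45 for Gdf3. Bmp5 (chr9:75775364-76136350), the gene of the mouse short ear mutation, had 0.238, 5.87 and 21.8 FPKM (lowest, median and highest) in LPS, against 0.215, 0.0873, 0.210 and 0.403 FPKM in WAT. LPS 4 and LPS 6 were far above the rest, LPS 1 was low and LPS 3 lay within the WAT range. Its log2 difference was 2.44 ± 0.67 (SE, adjusted p = 0.00914), and the call was lost without WAT 1 and WAT 4 (adjusted p = 0.0702). Its row spans 360987 bases, against 124947 bases in GENCODE, and overlaps an antisense gene. Gdf3 (chr6:122605403-122610087), a ligand of ALK7 in mouse fat, had 1.12, 1.78 and 8.85 FPKM (lowest, median and highest) in LPS. It was listed at 0 in WAT 1, WAT 2 and WAT 3 and was at 0.0303 FPKM in WAT 4, so no fold is given. All tumours were above all WAT libraries, with LPS 7 highest, and the log2 difference was 1.73 ± 0.35 (SE, adjusted p = 0.00139). The macrophage marker sum was also above WAT in all tumours, and its part in the Gdf3 level was not tested. Gdf3 was thus detected in the tumours, where its receptor gene Acvr1c was at most 0.184 FPKM, and was near 0 in the fat, where Acvr1c was at least 26.3 FPKM.

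Gdf10, Bmp3, Bmp6 and Bmp7 were called lower in LPS. Gdf10 (chr14:33923587-33935280), also known as BMP3B and close in sequence to Bmp3, had 0, 0.0680 and 1.85 FPKM (lowest, median and highest) in LPS, against 7.73, 7.72, 8.44 and 10.3 FPKM in WAT. LPS 5 was the highest tumour, and the log2 difference was -2.96 ± 0.25 (SE, adjusted p = 7.63e-07). Bmp3 (chr5:98854439-98880960), known for opposing other BMPs in bone, had 0.0179, 0.0355 and 0.0763 FPKM (lowest, median and highest) in LPS, against 5.47, 4.08, 5.59 and 1.19 FPKM in WAT. No tumour reached 0.1 FPKM and WAT 4 was the lowest WAT library, with a log2 difference of -2.17 ± 0.24 (SE, adjusted p = 8.18e-06). Bmp6, a regulator of iron balance in mouse liver, had 0.0977, 0.375 and 1.23 FPKM (lowest, median and highest) in LPS, against 2.78, 3.09, 5.17 and 3.10 FPKM in WAT. No libraries overlapped and WAT 3 was the highest, with a log2 difference of -1.66 ± 0.20 (SE, adjusted p = 1.77e-05). Bmp7, which promotes brown fat formation in mice, was 0 to 0.402 FPKM in LPS and 1.51 to 2.43 FPKM in WAT, with a log2 difference of -1.41 ± 0.13 (SE, adjusted p = 1.51e-06). Exons of Bmp6 overlap Txndc5 on the other strand. Bmp2 and Bmp4, the ligands best known for commitment of progenitors to fat, did not reach the filter, at 0.404 to 1.59 FPKM in LPS and 0.772 to 1.42 FPKM in WAT for Bmp2 and 0.0698 to 2.80 FPKM in LPS and 0.823 to 1.35 FPKM in WAT for Bmp4. Gdf5 (chr2:155940728-155945367), a ligand known for joint formation, had 0.508, 1.24 and 4.31 FPKM (lowest, median and highest) in LPS, against 1.19, 0.859, 0.709 and 3.65 FPKM in WAT. LPS 3 and WAT 4 were the high libraries of overlapping groups. The log2 difference of Gdf5 was 0.02 ± 0.33 (SE, adjusted p = 0.966), and the joined row of Gdf1 had one of -0.22 ± 0.14 (SE, adjusted p = 0.226). Gdf10 lies 3.06 kb from Gdf2 (BMP9), which was listed at or near 0 in both groups. Bmp1 is no ligand but the metalloproteinase that trims procollagens and activates latent ligands. It was 20.9 to 49.7 FPKM in LPS and 16.8 to 24.5 FPKM in WAT, with a log2 difference of 0.56 ± 0.20 (SE, adjusted p = 0.0363), and the call was lost without LPS 1, LPS 3, LPS 7, WAT 1, WAT 2 or WAT 4 (adjusted p = 0.0527 to 0.122) and without WAT 1 and WAT 4 together (adjusted p = 0.209).

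**Figure D4:**
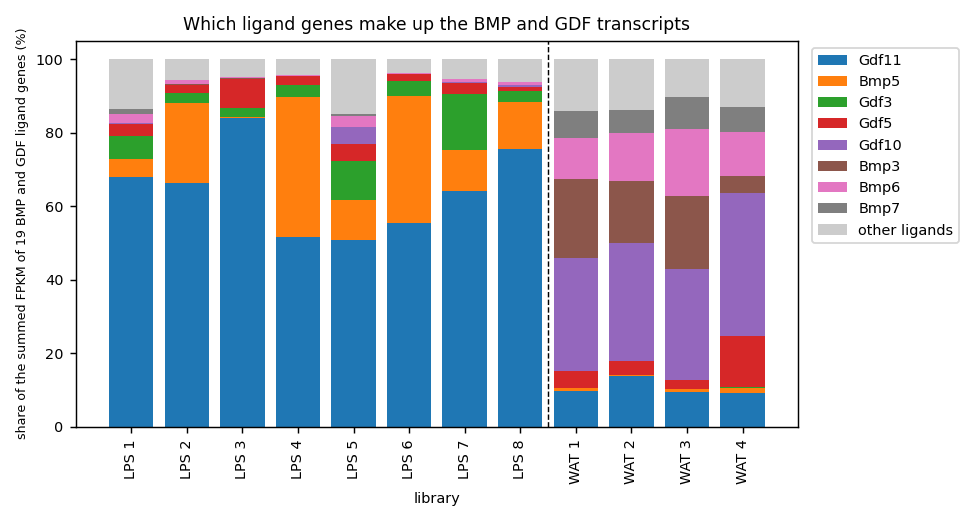
Share of each ligand gene in the summed FPKM of 19 BMP and GDF ligand genes, in percent, with 1 stacked bar per library and the 8 LPS libraries left of the dashed line. Gdf11 fills 50.8 to 83.9% of the LPS bars and 9.09 to 13.8% of the WAT bars, where Gdf10 holds 30.0 to 39.1%.

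Of the 4 BMP receptor genes, Bmpr1b, Acvr1 and Bmpr2 were called higher in LPS and none lower. That is 75% of the 4 higher, against 18.9% of all rows tested, and Bmpr1b reached the filter through LPS libraries alone. The sum of the 4 was 41.6 to 83.8 FPKM in LPS and 38.4 to 47.2 FPKM in WAT. Only LPS 5 fell within the WAT range of that sum. Bmpr1b (chr3:141837136-142169425) encodes the type I receptor ALK6, known for its role in cartilage and limb growth. It had 2.79, 5.34 and 8.02 FPKM (lowest, median and highest) in LPS, against 0.290, 0.164, 0.0869 and 0.195 FPKM in WAT. The groups were far apart, and the log2 difference was 2.34 ± 0.26 (SE, adjusted p = 8.19e-06). Acvr1 (ALK2, chr2:58388644-58567157) had 7.12, 9.76 and 12.3 FPKM (lowest, median and highest) in LPS, against 5.53, 4.91, 5.45 and 5.46 FPKM in WAT. The WAT libraries were tightly grouped, WAT 2 being slightly lower, with a log2 difference of 0.72 ± 0.15 (SE, adjusted p = 0.00127). Bmpr2, the type II receptor, averaged 29.2 ± 5.91 FPKM in LPS and 17.2 ± 1.33 FPKM in WAT (SD, n = 8 and 4), with a log2 difference of 0.70 ± 0.16 (SE, adjusted p = 0.00296). All tumours lay above all WAT libraries for both, although LPS 5 came near WAT 3 for Bmpr2, at 18.8 FPKM in LPS 5 and 18.7 FPKM in WAT 3. Bmpr1a (ALK3, chr14:34410734-34503341) had 12.8, 26.4 and 34.5 FPKM (lowest, median and highest) in LPS, against 20.5, 17.1, 17.6 and 23.4 FPKM in WAT. Most tumours lay above the WAT libraries while LPS 5 lay below them, and the log2 difference was 0.34 ± 0.23 (SE, adjusted p = 0.254). It was called without LPS 5 (adjusted p = 0.0374) and with library weights (adjusted p = 0.0235).

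Transcripts of Chrdl1 and Grem1, secreted antagonists that bind BMPs and keep them from their receptors, were near absent in the tumours. Chrdl1 (chrX:143285674-143394262) encodes chordin-like 1. It had 0, 0.103 and 0.696 FPKM (lowest, median and highest) in LPS, against 14.5, 17.5, 16.0 and 8.78 FPKM in WAT. All tumours were below 1 FPKM, LPS 5 was the highest of them, and the log2 difference was -3.68 ± 0.19 (SE, adjusted p = 9.12e-09). Grem1, which encodes gremlin 1, was listed at 0 in 6 of 8 LPS libraries and at most 0.0329 FPKM in the others, against 1.23, 2.47, 1.38 and 1.54 FPKM in WAT. Its log2 difference was -1.38 ± 0.12 (SE, adjusted p = 9.27e-07). The fibroblast and progenitor markers, of which 6 of 7 were called lower, moved in the same direction, and Dcn among them was 0.358 to 30.1 FPKM in LPS and 165 to 243 FPKM in WAT.

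The genes of the signal-transducing SMADs were not called, and both inhibitory SMAD genes were called lower, against 27% of all rows tested. Smad4, the common partner, had 15.4, 25.9 and 27.8 FPKM (lowest, median and highest) in LPS, against 25.0, 24.9, 24.8 and 24.5 FPKM in WAT. LPS 5 lay below all the other libraries, which were close together, with a log2 difference of -0.03 ± 0.14 (SE, adjusted p = 0.858). Smad2 had a log2 difference of 0.02 ± 0.12 (SE, adjusted p = 0.877) in overlapping groups. Smad1 (chr8:79338395-79399518), a carrier of BMP signals, had 9.22, 11.4 and 19.1 FPKM (lowest, median and highest) in LPS, against 10.6, 11.1, 10.2 and 9.12 FPKM in WAT. LPS 3 stood above all the other libraries, and the log2 difference was 0.18 ± 0.16 (SE, adjusted p = 0.363). Smad3 (chr9:63646767-63757994) had 6.14, 19.2 and 46.3 FPKM (lowest, median and highest) in LPS, against 12.8, 15.7, 11.3 and 12.1 FPKM in WAT. LPS 3 and LPS 1 were well above WAT and LPS 4 and LPS 5 below it, and the log2 difference was 0.46 ± 0.44 (SE, adjusted p = 0.409). The joined row of Smad5, with an antisense RNA, had the highest mean of the SMAD rows. It had 20.2, 25.2 and 106 FPKM (lowest, median and highest) in LPS, against 20.9, 62.8, 20.1 and 19.2 FPKM in WAT. LPS 3 and WAT 2 stood far above the other libraries of their groups, and the log2 difference was 0.21 ± 0.43 (SE, adjusted p = 0.714). Smad6 (chr9:63953076-64022059), an inhibitor chiefly of BMP signals, had 0.470, 1.34 and 2.22 FPKM (lowest, median and highest) in LPS, against 4.02, 4.19, 4.13 and 5.21 FPKM in WAT. The groups did not overlap, and the log2 difference was -1.26 ± 0.21 (SE, adjusted p = 0.000306). Smad7, an inhibitor of both branches, had 1.94, 3.35 and 9.76 FPKM (lowest, median and highest) in LPS, against 7.49, 7.84, 8.74 and 5.91 FPKM in WAT. LPS 6 lay above every WAT library and all the other tumours lay below every WAT library. The log2 difference was -0.87 ± 0.27 (SE, adjusted p = 0.0177). The Smad7 call was lost without WAT 3 (adjusted p = 0.0604) and without WAT 1 and WAT 4 together (adjusted p = 0.0705). SMAD protein and phosphorylation were not measured.

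Other genes of the pathway, taken from lists of known regulators and targets, were read from the same fit. Over the 6 lists, 51 genes outside the 57 were tested. Of these, 9 were called higher (17.6%, against 18.9% of all rows tested) and 13 lower (25.5%, against 27%), shares close to those of all rows. Without WAT 1 and WAT 4, 7 were called higher and 3 lower. With the rows of all 12 libraries kept, 7 were higher and 5 lower. Over all rows tested the share called lower fell as well, from 27% to 15.2%, or to 19.3% with the rows kept. A smaller WAT group also gives the fit less power, and no other pair of WAT libraries was left out. The part of WAT 1 and WAT 4 themselves in the lost calls therefore cannot be told apart from that. Values of single list genes are from the fit over all 12 libraries, and which of them lost the call is not given. Of 13 extracellular regulators tested, 2 were higher and 2 lower (15.4% each way), with a median log2 difference of 0.26. Kcp, a kielin and chordin-like protein known to enhance BMP signals, had 9.93, 20.7 and 32.2 FPKM (lowest, median and highest) in LPS, against 1.72, 1.71, 2.07 and 1.42 FPKM in WAT. The groups were far apart, and the log2 difference was 2.87 ± 0.25 (SE, adjusted p = 9.15e-07). Lrrc32, which encodes GARP, a surface anchor of latent TGF-beta, had 4.53, 11.2 and 26.4 FPKM (lowest, median and highest) in LPS, against 3.27, 4.70, 4.03 and 2.94 FPKM in WAT. The lowest tumour fell just below the highest WAT library, and the log2 difference was 1.42 ± 0.35 (SE, adjusted p = 0.00499). Chrd (chordin) averaged 0.347 ± 0.227 FPKM in LPS and 2.00 ± 0.441 FPKM in WAT (SD, n = 8 and 4), with a log2 difference of -1.16 ± 0.16 (SE, adjusted p = 4.91e-05). Bmper averaged 3.88 ± 2.1 FPKM in LPS and 8.70 ± 0.907 FPKM in WAT (SD, n = 8 and 4), with a log2 difference of -1.11 ± 0.32 (SE, adjusted p = 0.0119). Fstl1, the most abundant of the list not called, averaged 176 FPKM in LPS and 142 FPKM in WAT. Of 4 membrane co-receptors and decoys tested, 2 were higher (50%, against 18.9% of all rows tested) and none lower. The 2 were Rgma, a BMP co-receptor, and Cd109, a TGF-beta co-receptor. The log2 difference was 1.27 ± 0.24 (SE, adjusted p = 0.000856) for Rgma and 0.96 ± 0.32 (SE, adjusted p = 0.0244) for Cd109. Neo1, the most abundant of that list not called, averaged 10.9 FPKM in LPS and 7.62 FPKM in WAT. The 1 other ligand tested, the inhibin alpha subunit Inha, was higher, with a log2 difference of 0.61 ± 0.15 (SE, adjusted p = 0.00406).

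Of 14 other SMAD regulators tested, 6 were lower (42.9%, against 27% of all rows tested) and none was higher (against 18.9%). Their median log2 difference was -0.28. Tob1, a BMP-inhibitory cofactor, had 4.21, 5.97 and 9.14 FPKM (lowest, median and highest) in LPS, against 37.4, 44.3, 41.5 and 42.0 FPKM in WAT. The groups did not overlap, and the log2 difference was -2.61 ± 0.17 (SE, adjusted p = 5.44e-08). Pmepa1, itself induced by TGF-beta and an inhibitor of receptor-regulated SMADs, averaged 7.10 ± 3.14 FPKM in LPS and 16.9 ± 2.27 FPKM in WAT (SD, n = 8 and 4), with a log2 difference of -1.24 ± 0.30 (SE, adjusted p = 0.00418). Smurf2, a ubiquitin ligase for SMADs and receptors, was the most abundant not called, at 28.5 FPKM in LPS and 20.3 FPKM in WAT.

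Of 16 TGF-beta target genes tested, which include Ltbp2 and Smad7 from the 57, 2 were higher (12.5%, against 18.9% of all rows tested). Another 7 were lower (43.8%, against 27%), and the median log2 difference of the 16 was -0.14. Snai2, an epithelial-mesenchymal transition factor and called higher, averaged 6.14 ± 2.59 FPKM in LPS and 1.93 ± 0.258 FPKM in WAT (SD, n = 8 and 4), with a log2 difference of 1.21 ± 0.26 (SE, adjusted p = 0.00205). The type I collagen genes moved the other way. Col1a2 averaged 129 ± 149.7 FPKM in LPS and 772 ± 253 FPKM in WAT (SD, n = 8 and 4), with a log2 difference of -3.69 ± 1.05 (SE, adjusted p = 0.0117). Col1a1 averaged 95.1 ± 94.2 FPKM in LPS and 831 ± 284 FPKM in WAT (SD, n = 8 and 4), with a log2 difference of -3.68 ± 0.72 (SE, adjusted p = 0.000986). Postn (periostin), the most abundant not called, was 57.6 to 1526 FPKM in LPS and 196 to 372 FPKM in WAT, so the targets on this list did not share a direction. Of 10 BMP target genes tested, which include Smad6 and Smad7, 2 were higher (20%, against 18.9% of all rows tested) and 3 lower (30%, against 27%). These shares were close to those of all rows, and the median log2 difference was -0.50. Dlx5 had 1.88, 3.52 and 6.26 FPKM (lowest, median and highest) in LPS, against 0.0673, 0.129, 0.110 and 0.0496 FPKM in WAT. Msx1 had 3.44, 5.67 and 6.14 FPKM (lowest, median and highest) in LPS, against 1.15, 1.36, 1.21 and 1.17 FPKM in WAT. Both encode homeobox factors of skeletal development, neither overlapped between groups, and the log2 differences were 2.07 ± 0.24 (SE, adjusted p = 1.43e-05) for Dlx5 and 1.46 ± 0.15 (SE, adjusted p = 3.28e-06) for Msx1. Osteoblast markers summed to 15 to 128 FPKM in LPS, against 4.27 to 8.59 FPKM in WAT, of which Sp7 was called and Alpl and Runx2 were not. The mature osteoblast markers Bglap and Ibsp were at most 1.34 and 0.253 FPKM in LPS, and listed at 0 in most libraries. Their part in the Dlx5 and Msx1 levels was not tested. Atoh8 averaged 0.267 FPKM in LPS and 2.3 FPKM in WAT, with a log2 difference of -1.39 ± 0.15 (SE, adjusted p = 8.41e-06). Id1, a BMP target in many cell types, was not called. It averaged 34.1 FPKM in LPS and 36.8 FPKM in WAT, with a log2 difference of -0.23 ± 0.30 (SE, adjusted p = 0.574). Id3, also not called, averaged 32.1 FPKM in LPS and 44.5 FPKM in WAT, with a log2 difference of -0.78 ± 0.44 (SE, adjusted p = 0.166). The log2 difference of Id2 was -1.42 ± 0.58 (SE, adjusted p = 0.0609), not called. Id4, not called either, was 0.149 to 122 FPKM in LPS and 1.49 to 3.60 FPKM in WAT.

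Among themselves the tumours differed widely. On the log2 scale 34 of the 42 tested genes (81%) had a larger SD in LPS than in WAT, against 87.1% of all rows tested. LPS 1, LPS 3 and LPS 7 were the 3 highest tumours for Tgfbr2 (50.0, 89.9 and 70.7 FPKM), for Tgfbr3 (22, 33.2 and 20.7 FPKM) and for Fst (13.2, 10.2 and 4.27 FPKM). The same libraries were the 3 lowest for Tgfb3 (11.5, 7.82 and 14.7 FPKM). They also had the highest Pparg of the tumours, at 82.2, 94.2 and 66.5 FPKM, against 2.93 to 16.4 FPKM in the other tumours. Pparg was 70.4 to 134 FPKM in WAT, so LPS 1 and LPS 3 lay within the WAT range and LPS 7 just below it. LPS 1, LPS 3 and LPS 7 were singled out after their values were seen, and no test was made between them and the other tumours. LPS 5 was the highest tumour for 6 of the 15 genes called lower, among them Ltbp2, Gdf10, Chrdl1 and Acvr1c.

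**Figure D5:**
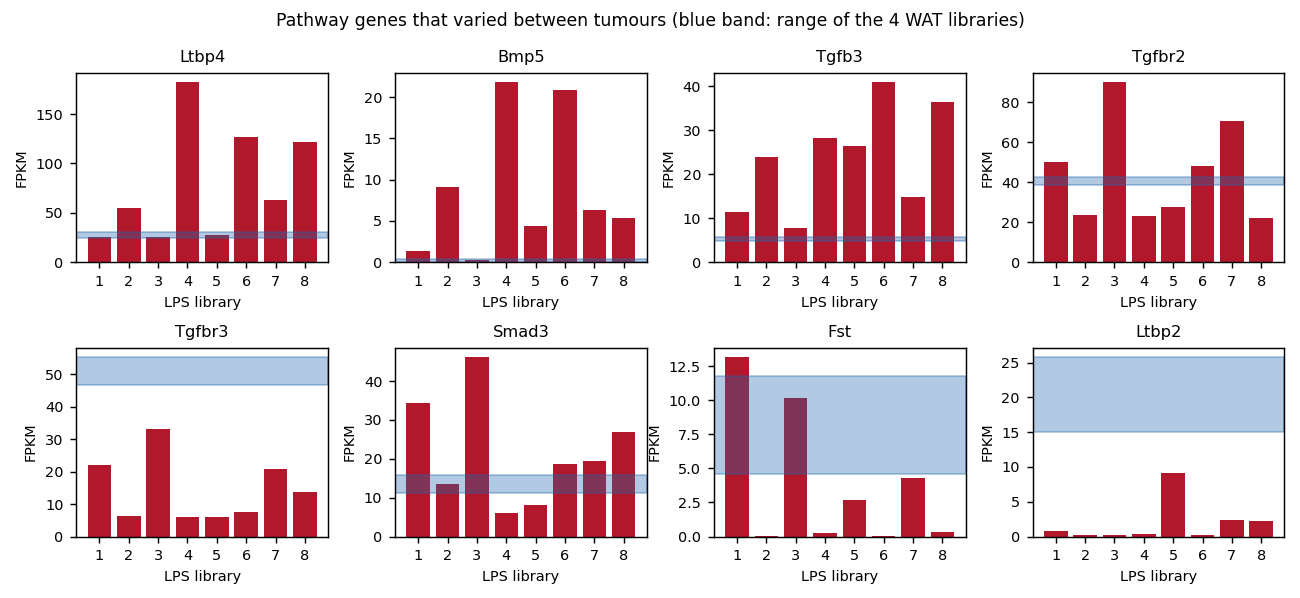
FPKM of 8 pathway genes in each LPS library (bars, linear axes from 0), with the range of the 4 WAT libraries as a blue band. Ltbp4 and Bmp5 are highest in LPS 4, Tgfbr2 and Smad3 in LPS 3 and Ltbp2 in LPS 5, and the Tgfbr3 bars all lie below the WAT band.

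Age within the tumours, 9 to 12 months, was tested as a slope of log2(FPKM + 1) per month over the 13280 rows that reached 1 FPKM in 4 or more of the 8 LPS libraries, of which 32 were pathway genes. None was called in either direction (0% of all rows), and the lowest adjusted p was 0.9998 in limma. At an unadjusted p below 0.05 there was 1 pathway gene, against 1.72% of all rows. This was Acvrl1, with a slope of -0.24 ± 0.10 (SE) per month. With 8 tumours at 4 ages, this does not show that the genes are unrelated to age.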

How the data were processed

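Stranded libraries were made from total RNA after ribosomal RNA depletion, per the labels' protocols. The deposited values are FPKM per gene locus and library. The submitters' processing notes name Trimmomatic, Bowtie2, TopHat2 2.1.0, Cufflinks 2.2.1, Cuffdiff 2.2.1 and build GRCm38, without roles. Whether the authors scaled the FPKM further, and with which strand setting fragments were counted, the sources used here do not state. Groups came from the sample titles.

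The comparison of LPS with WAT was a two-sided limma fit (limma 3.58.1, R 4.3.3) of log2(FPKM + 1) without covariates, in which the empirical Bayes step was robust and allowed a trend. Rows that reached 1 FPKM in 4 or more of 12 libraries were tested, with Benjamini-Hochberg adjustment over all of them and a threshold of 0.05. Age within LPS was fitted likewise. Single genes were also compared by an exact permutation test over the libraries. The fits were tested on simulated data. Coordinates are those of the deposited rows, counted from 1. All 57 genes overlapped the gene of that name in GENCODE M21, 31 with identical ends. Sequences are from RefSeq, GRCm38.p6.

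The genes and lists were chosen with earlier results of these data known. Every gene of the 57 could be named. Values in each library were given for called genes with a log2 difference of at least 1 and a mean of at least 5 FPKM in a group, for the most abundant gene not called in each role, and for genes with a library far from its group. From each other list the 2 largest calls each way and the most abundant gene not called were named. Id1, Id2 and Id4 were added from the BMP targets. Some genes that these rules name are left out here. Alternatives were other pseudocounts (0.1 and 0.5), filters and scalings, library weights, plain empirical Bayes, a replicate block, the Xist level as a covariate, a log2 threshold of 1, single-name rows alone, and leaving out each library. Leaving out WAT 1 and WAT 4 together, the same 8 libraries without the block, and keeping the rows of all 12 libraries when WAT libraries are left out were chosen after the data were seen.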

Additional observations from a re-analysis of the deposited data

Results flagged for a closer look

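Within each group of 8 LPS or 4 WAT libraries, 84 sets of values of tested genes were searched for a lowest or highest library far from the rest (Dixon's ratio above 0.526 for 8 and 0.829 for 4 libraries, on the log2 scale). For normally distributed values about 1 in 20 such sets would be marked, and 14 were marked here. Sets with values at or near 0, such as Gdf3 in WAT, do not follow that distribution, so no excess is read from this. LPS 5 was marked 5 times. It was above the other tumours for Gdf10 (1.85 FPKM, against 0 to 0.189 FPKM), Chrdl1 (0.696 FPKM, against 0 to 0.213 FPKM), Acvr1c (0.184 FPKM, against 0.00538 to 0.0773 FPKM) and Grem1 (0.0329 FPKM, against 0 to 0.012 FPKM), which were all called lower in LPS. It was below the others for Smad4, at 15.4 FPKM against 22.7 to 27.8 FPKM. LPS 3 was high for Smad1, at 19.1 FPKM against 9.22 to 12.1 FPKM, and for the joined row of Smad5, at 106 FPKM against 20.2 to 43.0 FPKM. WAT 2 was also high for the Smad5 row, at 62.8 FPKM against 19.2 to 20.9 FPKM. LPS 6 was high for Smad7, at 9.76 FPKM against 1.94 to 3.81 FPKM. WAT 4 was low for Acvr1c, at 26.3 FPKM against 37.7 to 40.0 FPKM, and high for Smad6, at 5.21 FPKM against 4.02 to 4.19 FPKM. It was also the WAT library with Gdf3 above 0, at 0.0303 FPKM. WAT 3 was high for Bmp6, at 5.17 FPKM against 2.78 to 3.10 FPKM. WAT 2 was low for Acvr1, at 4.91 FPKM against 5.45 to 5.53 FPKM.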

How the results depend on the processing

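No gene of the 57 with a call changed direction under any of the up to 30 alternatives that tested it. Of the 27 called genes, 19 stayed called wherever tested and 8 lost the call in some (Acvr2a, Acvrl1, Bmp1, Bmp5, Eng, Inhbb, Smad7 and Tgfb1), while 4 uncalled genes were called in some (Acvr2b, Bmpr1a, Fst and Ltbp4). Requiring a log2 difference of at least 1 left 6 genes higher and 12 lower. Leaving out each library in turn gave 8 to 14 genes higher and 7 to 15 lower, and 8 to 11 other pathway genes higher and 8 to 13 lower. The lowest counts came without a WAT library (8, 9, 7 and 8 lower without WAT 1, 2, 3 and 4), where fewer genes reach the filter (36 or 37 of the 57). These lower calls were 21.6%, 25%, 18.9% and 22.2% of the genes tested, against 21.3%, 21.3%, 20.4% and 20.6% of all rows. With the rows of all 12 libraries kept, 13, 14, 12 and 13 were lower (31%, 33.3%, 28.6% and 31%, against 24.1%, 24.2%, 23.5% and 23.6%). Without WAT 1 and WAT 4 together, 7 genes were higher (20.6%, against 10.1%) and 5 lower (14.7%, against 15.2%), with 3 other pathway genes lower. With the rows kept these counts were 7 (16.7%, against 9.86%), 12 (28.6%, against 19.3%) and 5. Unless the rows were kept, the share called lower thus lay near that of all rows. Quantile normalization moved the median of all rows tested to 0.10 and the share of lower calls among all calls to 45.2% (58.8% as deposited), with 13 genes higher and 14 lower. Replicate numbers 1 to 4 occur in both groups but do not pair libraries (correlations of same-numbered deviations from -0.017 to 0.092). With the number as a replicate block over those 8 libraries, 9 genes were higher and 14 lower, against 10 and 13 without the block. Over those 8 libraries the calls of Tgfb1, Inhbb and Acvr2a were lost with the block (adjusted p = 0.0922, 0.218 and 0.0866) and without it (adjusted p = 0.0851, 0.119 and 0.062). Without a filter on low values, Acvr2a, Acvrl1, Bmp1 and Eng lost the call (adjusted p = 0.0565 to 0.0758). WAT 3 alone correlated best with its own number. No gene was called for age under any of the 15 alternatives of that fit. The depth is not known, so differences between values near 0 FPKM cannot be bounded.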
